A study of Homo sapiens with 12 samples.

Results

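The genes for the proteins of the cytosolic ribosome were followed across 12 bulk RNA libraries of BT474 cells, an established HER2-amplified, oestrogen receptor-positive breast cancer line. Members were chosen by symbol alone: names of the RPL or RPS series with a number and at most a closing A, X or L with a number, plus RPLP0, RPLP1, RPLP2 and RPSA. This gave 84 genes of the 27814 named genes in the table, 52 of the large subunit and 32 of the small subunit, and all 84 passed the filter on low counts. They include 7 genes for paralogues, which are close relatives of a standard ribosomal protein (RPL3L, RPL7L1, RPL10L, RPL22L1, RPL26L1, RPL39L and RPS27L).

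Parental cells and cells whose label names a BRD8 knockout (KO) were each kept in DMSO, the solvent control, or in 200 nM neratinib, a covalent blocker of EGFR, HER2 and HER4, with 3 libraries in each of the 4 groups. The labels give 4 h for the drug. BRD8 carries bromodomains and belongs to the EP400-TIP60 complex, which remodels chromatin. The labels do not say where BRD8 was edited, whether the edited line was clonal or pooled, or whether replicates were separate cultures, so each p-value measures only the spread between these libraries, which may be technical. An effect of BRD8 and any other difference of the KO-labelled line cannot be told apart.

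Levels are given in CPM, counts scaled to each library's total after TMM correction for composition. BRD8 stood at 64.9, 63.5 and 64.1 CPM in the parental DMSO libraries and at 67.4, 66.1 and 68.8 CPM in the KO libraries in DMSO. In neratinib it stood at 232, 242 and 234 CPM in parental cells and at 153, 158 and 157 CPM in KO cells. BRD8 mRNA was thus not lower in the KO libraries in DMSO, and the cells are called KO-labelled. Library totals ran from 32471198 to 44726160 counts. All 11 luminal and HER2 markers examined were present and tested. In KO-labelled cells 5 of them were lower and 6 higher in DMSO, and 6 lower and 4 higher in neratinib. Of 13 markers of basal, stromal, endothelial and blood cells, 7 were tested. All 7 were higher in KO-labelled cells in DMSO (median log2 fold change 1.46) and in neratinib (1.06). Of all genes tested, 36% were higher and 35.6% lower in DMSO, and 34.7% and 36.9% in neratinib. The sum of the 13 markers, with COL1A1 as the most abundant, was 89.9 to 95.7 CPM in parental DMSO libraries, 126 to 134 CPM in KO-labelled DMSO libraries, and 110 to 113 CPM against 164 to 168 CPM in neratinib. The T cell marker CD3E was at 0 in 11 of 12 libraries. The part of these markers in the results was not tested. In bulk RNA, fewer cells of a kind and less RNA per cell cannot be told apart.

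A cytosolic ribosome joins a small subunit, which reads the messenger RNA, and a large subunit, which forms the peptide bond. Nearly every ribosomal protein is needed in equal number in each ribosome, and most of their mRNAs share a short 5′ terminal oligopyrimidine (TOP) tract: a C as the first base, followed by further C and T. Through this tract LARP1 and the kinase mTORC1 set how strongly the mRNAs are translated and how stable they are. Some proteins also have roles outside the ribosome, such as RPL5 and RPL11, which bind the ubiquitin ligase MDM2.

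The first bases of these genes show what most members share and where paralogues differ. Of the 84 genes, 67 had a promoter in the RefSeq table of GRCh38.p14, which covers 250 bases before to 50 bases after the annotated start. Each line below holds the 15 bases before the start and the 15 from it, 5′ to 3′ on the gene's own strand. Where the start base is a C that opens a pyrimidine run of at least 5 bases, capitals mark the run from that base on. Further pyrimidines may precede it. Elsewhere capitals mark the longest such run that opens with C within 10 bases of the start. RPS21 and RPS25 are shown because they were among the largest falls in both genotype comparisons, RPL13A because it rose most with drug among standard members in parental cells, RPLP1 because it barely differed between genotypes in DMSO, RPS26 because it fell with drug, and the 3 pairs because paralogue and standard gene moved apart.

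RPS21, chr20:62387088-62387117, plus strand: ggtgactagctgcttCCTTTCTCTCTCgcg

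RPS25, chr11:119018329-119018358, minus strand: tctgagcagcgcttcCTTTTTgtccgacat

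RPL13A, chr19:49487593-49487622, plus strand: cgacaaaacctcctcCTTTTCCaagcggct

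RPLP1, chr15:69452803-69452832, plus strand: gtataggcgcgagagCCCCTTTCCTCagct

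RPS26, chr12:56041903-56041932, plus strand: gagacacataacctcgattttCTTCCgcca

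RPL22, chr1:6199581-6199610, minus strand: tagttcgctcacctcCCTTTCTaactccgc

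RPL22L1, chr3:170870181-170870210, minus strand: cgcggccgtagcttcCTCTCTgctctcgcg

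RPL26, chr17:8383179-8383208, minus strand: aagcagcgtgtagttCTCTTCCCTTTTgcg

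RPL26L1, chr5:172958714-172958743, plus strand: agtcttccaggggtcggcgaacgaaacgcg

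RPS27, chr1:153990747-153990776, plus strand: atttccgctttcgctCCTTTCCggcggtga

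RPS27L, chr15:63157463-63157492, minus strand: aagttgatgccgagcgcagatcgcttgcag

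A C at the start with a pyrimidine run of at least 5 bases stood in 43 of the 67 promoters (64.2%), against 4.04% of all 27305 promoters of the same length. Such a run opening with C within 10 bases of the start stood in 56 of the 67 (83.6%), against 33.3% of all. Counted from the start base, RPS21 and RPL26 had runs of 12 bases, RPLP1 had 11 and RPS25 had 6. The annotated starts of RPL26L1 and RPS27L held no such run within 10 bases, whereas RPL22L1 held 1 of 6 bases. Searched on both strands, the ETS core CCGGAA was in 55.2% of the 67 promoters and in 17.6% of all, the YY1 motif AAGATGGC in 10.4% and 3.03%, the E-box CACGTG in 5.97% and 7.43%, and TATAAA in 10.4% and 12%. These counts describe letters in the window and are no evidence of binding.

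To compare levels between members, CPM were divided by coding length in kb. In parental cells in DMSO, RPL19 stood first with 19330 CPM per coding kb, followed by RPL41 with 13150, RPL23 with 12480 and RPS3 with 3642. The value of RPL41 rests on 986 CPM and a coding length of only 75 bases. RPL19 (chr17:39200283-39204732, GRCh38) and RPL23 (chr17:38847865-38853843) encode large subunit proteins and lie on chromosome 17, as does ERBB2. These 2 genes held 25.3% ± 0.932 of all member counts in parental cells in DMSO and 22.8% ± 0.96 in KO-labelled cells (SD, n = 3).

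Ribosomal protein genes have many processed pseudogenes, and how the authors' counting treated reads with several matches was not given in the sources used here. The share of 50-base windows of the coding sequence that also occur in the transcript of another gene was therefore computed for each member. It was under 10% for 13 standard members. Among these, levels in parental DMSO libraries lay within a 3.56-fold range, from RPLP2 with 627 CPM per coding kb to RPL8 with 2228, with a median of 945. RPL17, RPL36A and RPS10, at 44.5, 8.83 and 39.7 CPM per coding kb, stood far lower. They share every window with other transcripts, and rows for readthrough transcripts that join them to a neighbouring gene were at 0 in all 12 libraries, so their values are uncertain. RPL41 also shares every window, so its place in the order of levels is uncertain too. RPL3L, a form known from heart and skeletal muscle, stood at 0.0642 and RPL10L, known from testis, at 3.23.

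Members held less of the RNA in KO-labelled cells and more of it after neratinib. The 84 genes held 6.398%, 6.416% and 6.334% of counts in the parental DMSO libraries and 4.896%, 4.877% and 4.890% in the KO-labelled DMSO libraries. In neratinib they held 7.448%, 7.477% and 7.524% in parental and 5.565%, 5.514% and 5.597% in KO-labelled cells. No library of one group overlapped with another group. In each of the 4 pairwise comparisons the exact two-sided permutation test gave p = 0.1, the smallest that 3 libraries against 3 allow, and 0.1 after Benjamini-Hochberg adjustment. Without RPL19 and RPL23 the mean share was 4.77% in parental and 3.77% in KO-labelled cells in DMSO, and 5.64% and 4.30% in neratinib.

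**Figure D1:**
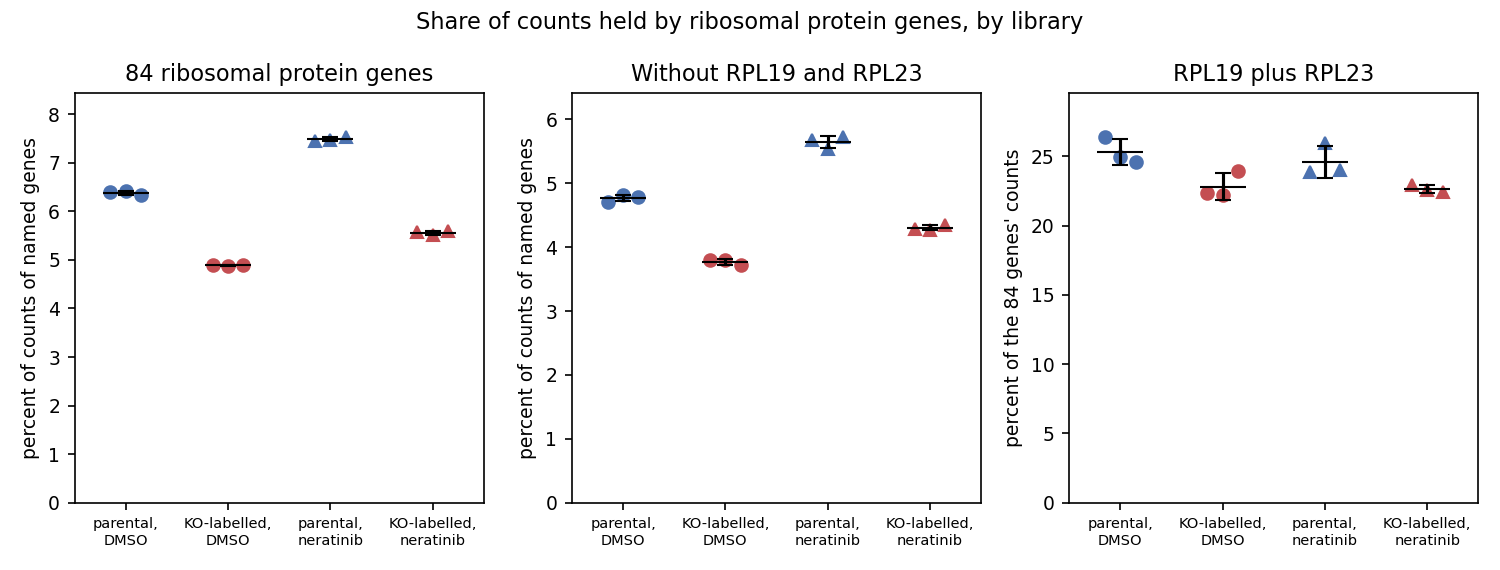
Percent of each library's counts over named genes held by the 84 ribosomal protein genes (left) and by those without RPL19 and RPL23 (middle), and percent of the members' counts held by RPL19 plus RPL23 (right). Points are libraries, bars are the mean and SD of 3; KO-labelled libraries lie below parental ones in both left panels, and neratinib libraries above DMSO libraries of the same genotype.

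In DMSO, 79 of the 84 members were lower in KO-labelled than in parental cells, 1 was higher and 4 did not pass the test (edgeR quasi-likelihood test, Benjamini-Hochberg adjusted p below 0.05 over the 16208 genes tested). Of all genes tested, 35.6% were lower and 36% higher. The members' median log2 fold change was -0.39, against 0.00 for all genes tested and 0.01 for the 2109 other genes with at least 100 CPM. Replicates agreed closely, with a common biological coefficient of variation of 1.86%, so small differences passed. A difference beyond 1.2-fold was therefore also tested with edgeR's glmTreat. By that rule 54 members were lower, against 17% of all genes. Libraries of the 2 genotypes did not overlap for 78 members lower and 2 higher, against 36.3% and 36.5% of all genes.

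Of the small subunit genes, 31 of 32 fell, with a median of -0.39, and of the large subunit genes 48 of 52, with a median of -0.40. RPS21, a small protein of the small subunit on chromosome 20 (62387116-62388520), stood at 185, 196 and 189 CPM in parental libraries and at 96.8, 98.6 and 94.4 CPM in KO-labelled ones. It fell by 0.97 on the log2 scale (SE 0.026, adjusted p = 4.31e-32). RPS25, which binds viral internal ribosome entry sites, stood at 332, 348 and 347 CPM against 177, 175 and 173 CPM, and also fell by 0.97 (SE 0.022, adjusted p = 9.35e-35). For both genes every parental library lay far above every KO-labelled library. RPS27A, which encodes a ubiquitin fused to a small subunit protein, was 467, 472 and 464 CPM in parental and 275, 276 and 279 CPM in KO-labelled libraries, a log2 fold change of -0.76 (SE 0.019). RPL29 (-0.72), RPL37 (-0.68) and RPL13A (-0.63), all of the large subunit, followed. Coding windows that occur elsewhere made up 66.6% in RPS25, 80.4% in RPS27A, 67.8% in RPL29 and 74.5% in RPL13A. The values of these genes are thus less certain than those of RPS21 (1.5%) and RPL37 (12.8%). RPL36A (-1.13) and RPL17 (-0.73) are also among the 8 largest falls, with the uncertain levels given above.

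A few members barely differed. RPLP1, which with RPLP0 and RPLP2 forms the large subunit stalk that recruits elongation factors, stood at 710, 723 and 695 CPM in parental and at 703, 704 and 711 CPM in KO-labelled cells, a log2 fold change of -0.01 that did not pass. RPLP0 fell by only 0.10 and RPLP2 by 0.21. RPS2, a small subunit protein at the mRNA entry side, had a log2 fold change of 0.01 and did not pass. It is named here after its value was seen. The other members that did not pass were the low paralogues RPL3L and RPL10L. Members differed among themselves by more than the replicates did: the quartiles of the log2 fold change were -0.51 and -0.25, while the median SD of a member's log2 level between replicates was 0.0253.

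Of the 18 members with under 10% shared windows, 16 fell, and the other two, the paralogues RPL3L and RPL10L, did not pass. The 13 standard members among them all fell, with a median of -0.31, and all 16 members with 90% or more fell, with a median of -0.44. The 32 pseudogene rows of members held 0.359% of counts in parental and 0.264% in KO-labelled cells in DMSO. The 43 members with a pyrimidine run at the start, which include the paralogue RPL22L1, had a median of -0.42. The 20 standard members with a promoter but no run at the annotated start had -0.37. Some of these 20, such as RPS28 and RPL10A, held a run beside the annotated start, so the split depends on where the start is annotated. The 37 members with an ETS core had a median of -0.40 and the 30 without it -0.40. Across members, the correlation of the fold change with GC content was 0.251 (Pearson) and with log2 coding length 0.144 (n = 84 genes, which share libraries).

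Members were also set beside their neighbours, the 10 nearest tested protein-coding genes on each side that are no members (11 to 20 in all). In DMSO, 81 of 84 members had a lower log2 fold change than the median of their neighbours, and the exceptions were RPS26, RPL3L and RPL26L1. The neighbour medians had a median of 0.02. They were not always near 0: RPS25, at -0.97, had neighbours with a median of -0.49, and RPS21 neighbours with a median of -0.30. RPL19, at -0.56, had neighbours with a median of -0.06, and RPL23, at -0.52, with a median of -0.02. Across members, fold change and neighbour median had a Pearson correlation of 0.441 and a Spearman correlation of 0.341 (n = 84 genes, whose neighbours partly overlap).

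In neratinib, 76 members were lower in KO-labelled cells, 2 were higher and 6 did not pass, where 36.9% of all genes tested were lower and 34.7% higher. The median was again -0.39, and 55 members were lower beyond 1.2-fold, against 17% of all genes. This comparison shares no library with that in DMSO, but it sets the same KO-labelled line against the same parental line. Of the 84 genes, 75 were lower in both comparisons, and the share of all genes lower in both was not computed. Across the 84 genes the log2 fold changes of the 2 comparisons had a Pearson correlation of 0.863 and a Spearman correlation of 0.915. RPS25 fell by 1.01 (SE 0.021), RPS21 by 0.89 (SE 0.025), RPS27A by 0.76 and RPL13A by 0.75 (each SE 0.019). RPL29 (-0.68), RPL21 (-0.66) and RPL22 (-0.63) were also among the largest falls. All coding windows of RPL21 and 96.7% of those of RPL22 occur elsewhere, so the values of RPL21 and RPL22 are uncertain. Libraries did not overlap for 76 members lower and 2 higher, against 37.6% and 35% of all genes. The 2 higher members were the paralogues RPL26L1 and RPL22L1.

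**Figure D2:**
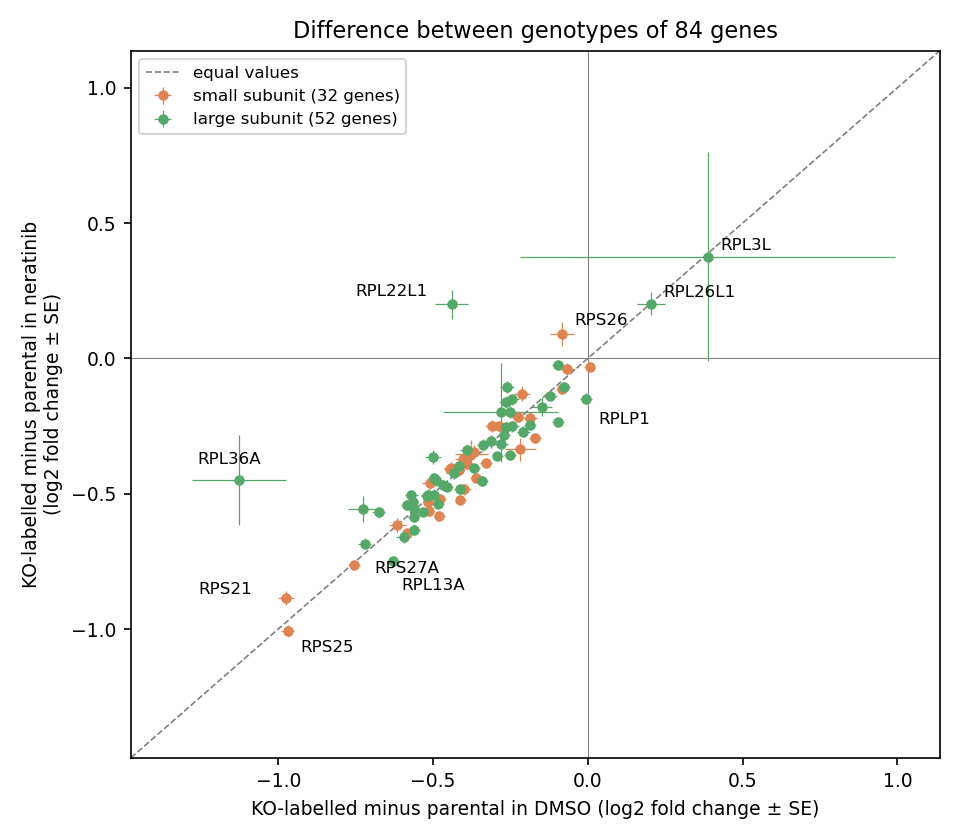
Log2 fold change (± SE) of KO-labelled over parental cells in DMSO (horizontal) and in neratinib (vertical) for the 84 genes, coloured by subunit, with the line of equal values. Most genes lie below 0 on both axes and near the line; RPS21 and RPS25 lie lowest together, RPL26L1 lies above 0 on both axes, and RPL22L1 is below 0 in DMSO and above 0 in neratinib.

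Most members were higher after neratinib, by small amounts. In parental cells 68 of 84 were higher after drug, 7 were lower and 9 did not pass, against 41.8% higher and 38.9% lower of all genes tested. The median log2 fold change was 0.14, that of all genes tested 0.04 and that of the other genes with at least 100 CPM -0.16. Beyond 1.2-fold, 7 members were higher and 2 lower, against 30.3% and 27% of all genes, so the members' share lay below that background. In KO-labelled cells 65 were higher, 4 lower and 15 did not pass, with 38.9% higher and 38.4% lower of all genes, and a median of 0.13. Beyond 1.2-fold, 7 were higher and 1 lower in KO-labelled cells, against 26.3% and 24.9% of all genes. Libraries did not overlap for 66 members higher and 7 lower in parental cells, against 42.1% and 39.1% of all genes, and for 66 higher and 3 lower in KO-labelled cells, against 39.2% and 38.8%. Scaled by library totals alone, the medians were 0.22 and 0.19, and with no filter on low counts 0.11 and 0.09. In both genotypes 63 members rose, and the share of all genes that did so was not computed. These counts of rises all include the barely detected RPL3L, which passed the filter on low counts only through neratinib libraries. The share of counts from mitochondrially encoded genes moved with drug too, from 2.98% to 4.52% in parental and from 2.75% to 5.21% in KO-labelled cells, and its part in the members' values was not tested.

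RPL13A, a large subunit protein also known for silencing interferon-induced mRNAs, rose from 1378, 1348 and 1323 CPM to 1799, 1857 and 1793 CPM in parental cells, by 0.43 on the log2 scale (SE 0.019, edgeR adjusted p = 6.12e-24). In KO-labelled cells it rose from 866, 866 and 888 CPM to 1096, 1064 and 1081 CPM, by 0.31. All drug libraries were above all DMSO libraries of their genotype. RPL18 (0.31), RPL28, RPL15 and RPLP0 (0.30 each) and RPL5 and RPL23 (0.28 each) were the next standard members in parental cells. In KO-labelled cells RPL31 (0.39), RPL34 (0.36) and RPL37 (0.31) rose most among standard members. RPS6, the small subunit protein that S6 kinases phosphorylate, rose by 0.15 in parental and 0.05 in KO-labelled cells. This second rise did not pass without KO-labelled DMSO replicate 3 (RPS6 at 0.02) or with no filter on low counts (0.01). RPL11 rose by 0.12 and 0.17, and RPL5 by 0.28 and 0.21.

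RPS26, a small subunit protein near the mRNA exit channel, fell where most members rose. It stood at 43.5, 41.8 and 43.6 CPM in parental DMSO libraries and at 27.7, 24.6 and 27.2 CPM in neratinib, a fall by 0.69 (SE 0.041, edgeR adjusted p = 1.2e-19). In KO-labelled cells it went from 42, 40 and 39.8 CPM to 30.4, 27.6 and 27.2 CPM, a fall by 0.52 (SE 0.041). The groups did not overlap. All its coding windows occur in other transcripts, so its level and its change are uncertain, and its annotated start is not the first base of its pyrimidine run. The other falls were RPL36A and RPL22L1 in parental cells (-0.62 and -0.29), RPL39L (-0.15 in parental and -0.18 in KO-labelled cells), and small ones of RPL7L1, RPL8 and RPL35 (-0.10, -0.10 and -0.09 in parental cells) and of RPL21 and RPL35 (-0.08 and -0.05 in KO-labelled cells). With scaling by library totals alone, these small falls no longer passed: in parental cells RPL7L1 was at -0.02, RPL8 at -0.02 and RPL35 at -0.01, and in KO-labelled cells RPL21 was at -0.03 and RPL35 at 0.01. With a filter at a mean of at least 5 CPM, all of these but that of RPL7L1 did not pass either. RPL35 in KO-labelled cells kept its call in only 11 of 21 alternatives.

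**Figure D3:**
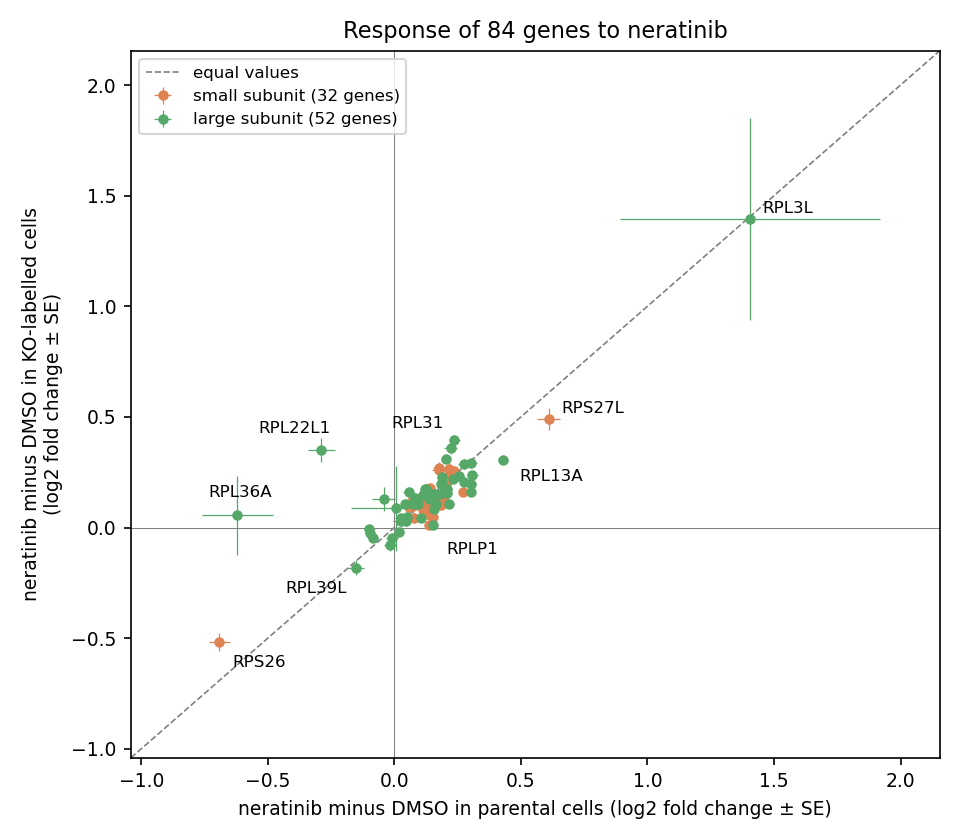
Log2 fold change (± SE) after neratinib in parental (horizontal) and KO-labelled cells (vertical) for the 84 genes, coloured by subunit, with the line of equal values. Most genes form a cluster just above 0 on both axes; RPS26 lies below 0 on both, RPS27L and the barely detected RPL3L lie highest, and RPL22L1 lies left of 0 and above 0.

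The interaction, which takes the parental drug response from the KO-labelled one, passed for 24 of 84 members, 11 with a higher and 13 with a lower response in KO-labelled cells. Of all genes tested, 46.1% passed, 21.5% higher and 24.6% lower. The members' median was 0.00 on the log2 scale. RPL22L1 alone differed beyond 1.2-fold, against 6.59% higher and 7.1% lower of all genes. RPL36A (0.68, SE 0.229), RPS26 (0.17) and RPL17 (0.17), with the uncertain levels given above, and RPL31 of the large subunit (0.16, SE 0.031) were the other 4 at the upper end. RPL36A did not pass without 1 KO-labelled neratinib library (replicate 1, 0.51), and RPS26 did not pass without that library or without parental neratinib replicate 2 (0.13 each). RPL17 kept its call in 11 of 20 alternatives. It did not pass with library totals alone (0.15), with no filter (0.16), with DESeq2 (0.19), or without parental DMSO replicates 1 (0.15) or 2 (0.18), KO-labelled DMSO replicate 1 (0.15), parental neratinib replicate 3 (0.15) or KO-labelled neratinib replicates 1 (0.15) or 2 (0.18). At the other end were RPLP1 and RPLP0 with -0.14 each (SE 0.027 and 0.026), RPSA with -0.12, RPL13A with -0.12 and RPS3 with -0.11. RPLP1 rose by 0.15 with drug in parental cells and had 0.01 in KO-labelled cells, where it did not pass. RPSA, a small subunit protein that also serves as a laminin receptor, rose by 0.14 in parental cells and had 0.01 in KO-labelled cells. Of its coding windows 87.6% occur elsewhere. The counts depended on the scaling: with DESeq2-style size factors 16 were higher and 8 lower, and with library totals alone 7 and 21. Of the 24 members, 13 kept their call in every alternative in which they were tested.

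Among the 74 members with at least 100 CPM, the interaction had a Pearson correlation of -0.388 and a Spearman correlation of -0.452 with log2 coding length (n = 74 genes that share libraries). The 23 members under 400 coding bases had a median of 0.03 and the 23 with 600 or more a median of -0.05, against -0.03 and 0.00 for other genes of those lengths and levels. The correlation with mean log2 CPM was -0.348.

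Several paralogues moved apart from their standard genes. RPL26L1 stood at 22.5, 25.8 and 24.2 CPM in parental and at 26.4, 28.9 and 28.1 CPM in KO-labelled DMSO libraries, and rose by 0.20 (SE 0.044, edgeR adjusted p = 7.84e-05). RPL26, its standard counterpart in the large subunit, fell by 0.58, from 388, 399 and 384 CPM to 262, 263 and 256 CPM. The ratio of RPL26L1 to RPL26 counts went from 6.19% ± 0.345 to 10.7% ± 0.52 in DMSO and from 5.63% ± 0.129 to 9.43% ± 0.0966 in neratinib (SD, n = 3). The ratio was higher in every KO-labelled library. Of the coding windows of RPL26L1, 49.7% occur elsewhere, and of those of RPL26 82.1%, so the ratio is uncertain.

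RPL22L1 is a paralogue of RPL22, a large subunit protein known to repress RPL22L1. It stood at 17.8, 18.4 and 18.1 CPM in parental DMSO libraries, 14.4, 12.9 and 12.7 CPM in KO-labelled DMSO libraries, 14.5, 14.8 and 15.2 CPM in parental neratinib libraries and 16.2, 17.1 and 17.8 CPM in KO-labelled neratinib libraries. With drug it fell by 0.29 in parental cells and rose by 0.35 in KO-labelled cells, an interaction of 0.64 (SE 0.076, edgeR adjusted p = 1.85e-09), which lay between 0.61 and 0.72 in every alternative. RPL22 rose in both, by 0.16 and 0.09. RPL22L1 was 4.09% ± 0.033 of RPL22 in parental and 4.44% ± 0.249 in KO-labelled cells in DMSO, and 3.01% ± 0.0576 and 5.35% ± 0.291 in neratinib. Only 4.73% of the coding windows of RPL22L1 occur elsewhere, but 96.7% of those of RPL22 do, so the ratio is uncertain.

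RPS27L, the paralogue of RPS27 of the small subunit, had the largest rise of a member above 1 CPM. It went from 18.9, 19.1 and 19.7 CPM to 27.8, 30.4 and 30.1 CPM in parental cells, by 0.61 (SE 0.045), and from 16.6, 15.9 and 17.2 CPM to 23.8, 23.6 and 22.3 CPM in KO-labelled cells, by 0.49 (SE 0.049). No drug library overlapped a DMSO library of the same genotype, and none of its coding windows is shared. RPS27 rose by 0.21 and 0.26, and the ratio went from 2.49% to 3.29% in parental and from 3.05% to 3.56% in KO-labelled cells. All coding windows of RPS27 occur elsewhere, so this ratio is uncertain.

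RPL39L, a form enriched in male germ cells, was 12.2% of RPL39 in parental and 14.8% in KO-labelled cells in DMSO, and 10.4% and 12.1% in neratinib. RPL7L1, a nucleolar relative of RPL7, was 27.0% and 27.4% of RPL7 in DMSO, where the groups overlapped, and 22.2% and 23.8% in neratinib. All coding windows of RPL39, 99.7% of those of RPL7 and 64.8% of those of RPL7L1 occur elsewhere, so these ratios are uncertain too. RPL3L had under 1 CPM in every library, from 0.0755 to 0.123 CPM in DMSO and from 0.151 to 0.307 CPM in neratinib. It passed the filter on low counts only through neratinib libraries, so its drug response is no independent result. Its rise of 1.40 with drug in parental cells did not pass without 1 parental neratinib library (replicate 3, 1.13), nor with DESeq2. RPL10L did not pass in any comparison. Between genotypes in DMSO its log2 fold change of -0.28 became -0.57 and passed without KO-labelled DMSO replicate 3. For each of the 28 ratio comparisons an exact two-sided permutation test over libraries was run: 21 reached p = 0.1, the smallest possible, with 0.133 after Benjamini-Hochberg adjustment over the 28. Among the 21 are ratios of RPL3L to RPL3, for which RPL3L had only 3 to 11 counts per library. Those with drug are no independent results, as RPL3L passed the filter only through neratinib libraries.

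**Figure D4:**
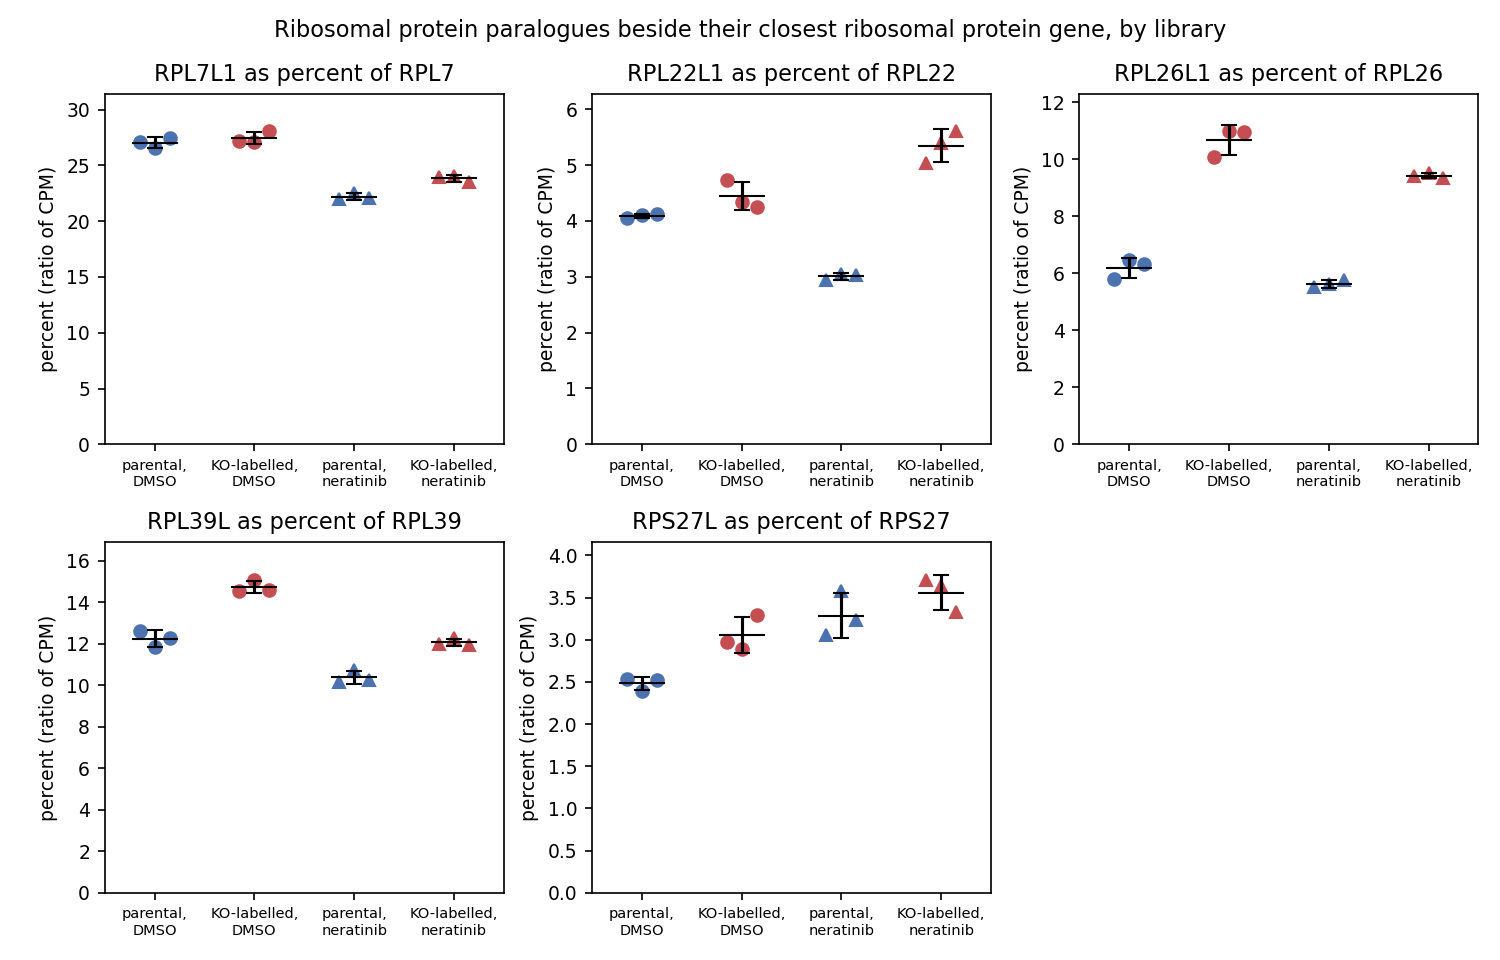
CPM of each of 5 paralogues as a percent of the CPM of its closest ribosomal protein gene, by library, with mean and SD of 3. RPL26L1 is higher relative to RPL26 in all KO-labelled libraries, RPS27L is higher relative to RPS27 in neratinib than in DMSO, and RPL22L1 is lowest in parental and highest in KO-labelled neratinib libraries.

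Of 4 further ribosomal genes outside the naming rule, 4 were lower in KO-labelled cells in DMSO and 4 in neratinib, and with drug 2 rose and 2 fell in parental cells and 1 rose and 1 fell in KO-labelled cells. Values are given for 3 of them. FAU, a fusion that gives RPS30, RACK1, a signalling scaffold of the small subunit, and RPL36AL were lower in KO-labelled cells in DMSO (-0.43, -0.35 and -0.28) and in neratinib (-0.45, -0.44 and -0.17). After drug, RACK1 in parental cells rose by 0.28, while FAU fell by 0.05 and RPL36AL by 0.09. In KO-labelled cells RACK1 rose by 0.19 and FAU fell by 0.08.

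For other gene groups, the background is the share of all genes tested, which was 35.6% lower and 36% higher between genotypes in DMSO, 36.9% and 34.7% in neratinib, 38.9% lower and 41.8% higher with drug in parental cells, and 38.4% and 38.9% with drug in KO-labelled cells. No test of a group against other genes was made. Of 25 other mRNAs known for a TOP tract, 20 were lower in KO-labelled cells in DMSO and 3 higher, with a median of -0.26. The non-coding SNHG1 (-0.99) and the elongation factor EEF1G (-0.75) fell most, and the filament gene VIM (0.66) and EEF1D (0.43) rose most. In neratinib 21 were lower and 3 higher. With drug in parental cells 17 of the 25 rose and 7 fell, with a median of 0.21, led by VIM (1.04) and the initiation factor EIF4B (0.87), while the importin IPO5 (-0.61) and EIF3A (-0.55) fell. In KO-labelled cells 17 rose and 6 fell.

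Of 33 genes for chaperones, importers and assembly partners of ribosomal proteins, 28 were lower in KO-labelled cells in DMSO and 4 higher, with a median of -0.20. In neratinib 19 were lower and 7 higher, with a median of -0.09. Beyond 1.2-fold, 12 were lower and 1 higher in DMSO, against 17% and 20.6% of all genes. In neratinib 4 were lower and 3 higher beyond 1.2-fold, against 17% and 19.7% of all genes. The ends of the list in DMSO were the kinase RIOK1 (-0.60) and NACA (-0.56), which shields nascent chains, and AAMP (0.16) and ZNF277 (0.41), known as partners of single ribosomal proteins. With drug in parental cells 23 fell and 7 rose, with a median of -0.37. RRS1 and HEATR3, which bring RPL5 and RPL11 to the ribosome, fell by 2.04 and 1.95, while EFL1 (0.49) and ZNF277 (0.76) rose. In KO-labelled cells 18 fell and 12 rose, and these genes fell by 1.91 and 1.77.

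Genes of ribosomal RNA transcription were 13 of 22 lower and 4 higher in KO-labelled cells in DMSO, with TAF1D at -0.94, POLR1G at -0.54, POLR1F at 0.23 and POLR2L at 0.34. In neratinib 9 were lower and 4 higher, with a median of -0.08 against -0.11 in DMSO. With drug in parental cells 12 fell and 8 rose, with the RNA polymerase I factor UBTF at -1.33 and the polymerase subunit POLR1A at -1.19, and TAF1C at 0.57 and TBP at 0.63. In KO-labelled cells 12 fell and 9 rose with drug. Of 80 tested rows with symbols of mitochondrial ribosomal proteins, which serve a separate ribosome, 52 were lower and 13 higher in KO-labelled cells in DMSO (median -0.14), and with drug in parental cells 53 fell and 13 rose (median -0.20). In DMSO MRPL12 (-0.81) and MRPL16 (-0.78) fell most and MRPL44 (0.39) and MRPS33 (0.26) rose most. With drug MRPL12 (-1.59) and MRPL20 (-0.97) fell most and MRPS31P5 (1.01), a pseudogene row, and MRPS31 (0.57) rose most. The pseudogene rows MRPS31P5 and MRPL45P2 are counted among the rows lower in DMSO (-0.53 and -0.23) and among those that rose with drug (1.01 and 0.45). The comparison of genotypes in DMSO and the drug response of parental cells share the parental DMSO libraries.

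Of 21 genes of mTORC1 and its effectors, 7 were lower and 9 higher in KO-labelled cells in DMSO (median 0.00), shares near those of all genes, with LARP1, which binds TOP tracts, at -0.55, its relative LARP1B at -0.42, and the mTORC1 inhibitors DEPTOR at 0.80 and SESN3 at 1.68. With drug in parental cells 12 fell and 8 rose, with LARP1 at -1.64, the cap-binding protein EIF4E at -1.27, DEPTOR at 1.49 and SESN3 at 2.62. Of 9 genes of the route through which RPL5 and RPL11 act on MDM2, 6 were lower and 2 higher in KO-labelled cells in DMSO, with NOP53 at -0.52, MDM2 at -0.48 and CDKN1A at 1.74 (median -0.42). In neratinib 4 were lower and 3 higher (median -0.07). MYC, a transcription factor known to act on ribosomal protein genes, was at 9.34, 9.61 and 11.1 CPM in parental and 1.42, 1.52 and 1.63 CPM in KO-labelled DMSO libraries, a log2 fold change of -2.72 (SE 0.105). In parental neratinib libraries MYC was at 9.05, 8.40 and 7.74 CPM, a fall by 0.25.

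**Figure D5:**
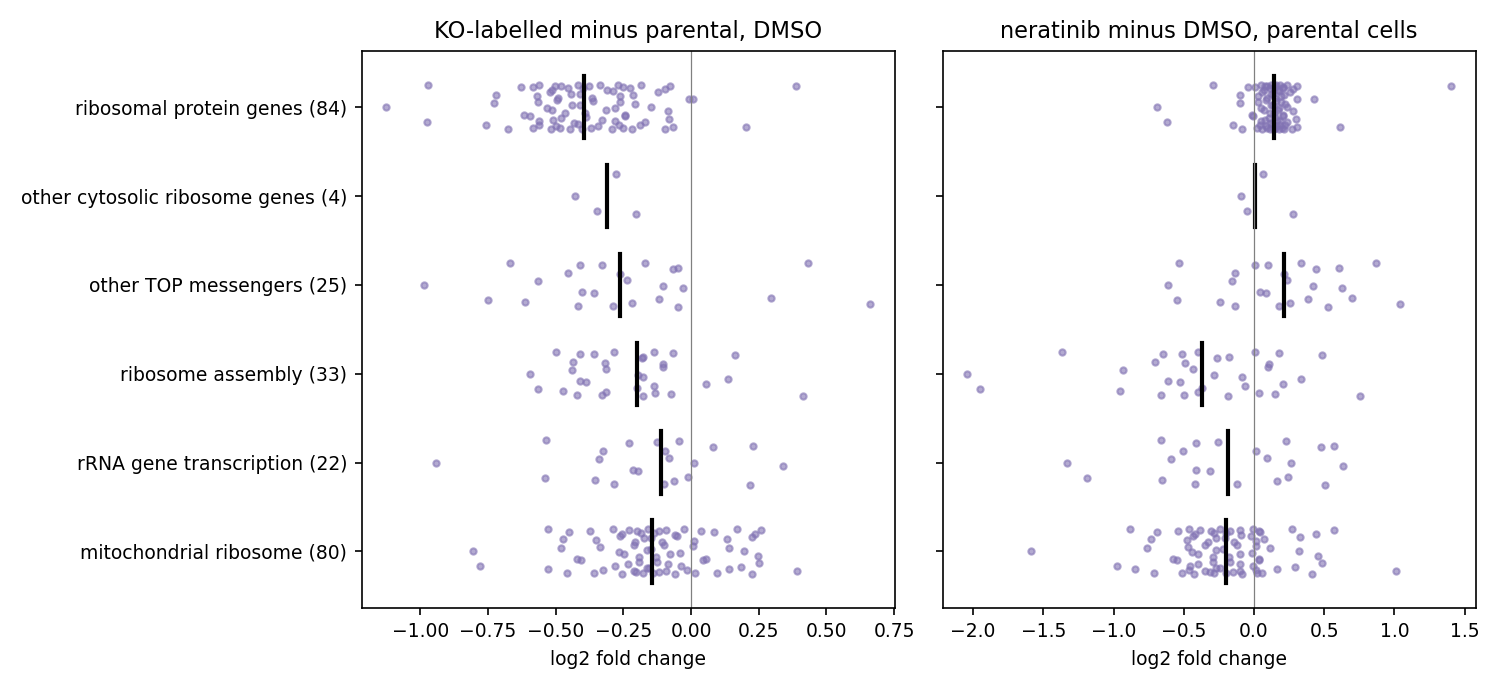
Log2 fold changes of KO-labelled over parental cells in DMSO (left) and of neratinib over DMSO in parental cells (right) for the 84 members and 5 other groups of genes, with the number of genes tested in brackets; points are genes and black bars are medians. On the left the medians of all 6 groups lie below 0; on the right members and other TOP mRNAs have medians above 0, and assembly, rRNA transcription and mitochondrial ribosome genes below 0.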

How the data were processed

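Gene counts of 12 BT474 libraries were used as deposited by the authors: raw counts per gene symbol, with no normalization. Per the labels' protocols, libraries were made with the TruSeq RNA Library Prep Kit v2 and read once over 50 bases. The submitters' processing notes name FastQC 0.11.7, STAR 2.7.9, edgeR 3.40.2 and GRCh38 (hg38). For the counting tool, its strand setting and the gene annotation, the entry is: not given in the sources used here. Of 28395 rows, 581 had no symbol and were left out. These held 0.0877% to 0.124% of counts.

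From these counts, edgeR 4.0.16 (R 4.3.3, limma 3.58.1) was run with filterByExpr, TMM and the quasi-likelihood test over 4 group means, with 8 residual degrees of freedom and Benjamini-Hochberg adjustment at 0.05 over all 16208 genes. DESeq2 1.42.0 served as an alternative. Shares and ratios had exact permutation tests. Code was tested on simulated counts. Coordinates and coding lengths came from GENCODE on GRCh38, promoters from RefSeq (GRCh38.p14).

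The members and gene lists were chosen with earlier results of these data known. Named genes are the 8 called members above 1 CPM with the largest change in each direction per comparison, the 5 of each sign for the interaction, all paralogue pairs, RPLP0, RPLP1, RPLP2, RPL5, RPL11, RPS6, RPS27A, RPSA, RPL19 and RPL23, BRD8 and MYC, and in each list the 2 called genes with the largest change in each direction. A few genes that this rule names are not reported here. The alternatives were other scalings, filters, pseudogene counts, a replicate block and leaving out each library.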

Additional observations from a re-analysis of the deposited data

Results flagged for a closer look

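The neratinib response differed between genotypes for 24 of 84 members by the interaction test (edgeR quasi-likelihood, Benjamini-Hochberg adjusted p below 0.05). Of all genes tested, 46.1% passed this test, with 21.5% higher and 24.6% lower, so the members' share lay below that background. Values are differences in log2 response, positive where KO-labelled cells had the higher one, and causes were not tested.

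Large subunit members and paralogues with a higher response in KO-labelled cells were RPL36A (0.68), RPL22L1 (0.64), RPL17 (0.17), RPL31 (0.16), RPL34 (0.14), RPL37 (0.11), RPL37A (0.10), RPL7L1 (0.0928) and RPL8 (0.0715). In the small subunit RPS26 (0.17) and RPS21 (0.0895) were higher. RPL22L1 was the 1 gene of these whose responses had opposite signs and passed in both genotypes.

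In the large subunit RPLP1 (-0.14), RPLP0 (-0.14), RPL13A (-0.12), RPL10 (-0.11), RPL15 (-0.11), RPL18 (-0.0724), RPL22 (-0.0714) and RPL5 (-0.0699) had a lower response. In the small subunit these were RPSA (-0.12), RPS3 (-0.11), RPS6 (-0.10), RPS4X (-0.0847) and RPS3A (-0.0803). The 13 calls kept in every alternative were those of RPLP0, RPLP1, RPL10, RPL13A, RPL15, RPS3, RPS6, RPSA, RPL22L1, RPL31, RPL34, RPL37 and RPL37A.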

How the results depend on the processing

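All 28 named members called in each genotype comparison kept direction and call in every alternative. Drug calls were kept for 24 of 29 in parental and 21 of 25 in KO-labelled cells, and interaction calls for 13 of 24. The cause of the shifts below was not tested. Shifts are given as log2 medians or counts of members called.

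With DESeq2-style size factors in edgeR the parental drug median was 0.12, and 8 interactions were lower (median 0.0215). DESeq2 gave 0.12, 8 and 0.0218. With library totals alone, which moved the median of all genes from 0.04 to 0.12 in parental cells, 4 members fell with drug in parental cells (median 0.221) and 2 in KO-labelled cells (median 0.186), and 21 interactions were lower and 7 higher (median -0.0248). With no filter the drug medians were 0.112 and 0.0913, and 7 fell in KO-labelled cells. From 5 CPM the genotype medians were -0.376 and -0.37, the drug medians 0.203 and 0.195, and 4 and 2 fell. With pseudogene counts added the medians were -0.416 (DMSO), 0.115 (parental drug) and 0.0237 (interaction, 8 lower, 19 higher).

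Without 1 library each, the medians ranged from -0.418 to -0.392 (genotypes in DMSO), 0.12 to 0.148 and 0.112 to 0.141 (drug, parental and KO-labelled) and -0.0147 to 0.0302 (interaction). Lower interactions numbered 8 to 16, with 8 without KO-labelled DMSO replicate 1 or parental neratinib replicates 1 or 3. Higher ones numbered 7 to 17, with 17 without parental neratinib replicate 3 and 7 without KO-labelled neratinib replicate 1. The log2 ratio of RPL10L to RPL10 ranged from -0.264 to 0.326 between genotypes in DMSO and from -0.277 to 0.313 with drug in KO-labelled cells.

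Same-numbered libraries did not deviate together (r from -0.114 to 0.0962 over 18 pairs), so numbers name libraries only. With the replicate block 79 members were lower and 1 higher in DMSO, 76 and 3 in neratinib, 68 rose and 7 fell with drug in parental cells, 64 and 3 in KO-labelled cells, and 12 interactions were lower and 11 higher.

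Changes of sign concerned members near 0. RPL10L with drug in parental cells was at -0.0179 with DESeq2-style size factors, -0.0259 with no filter, -0.000159 with the replicate block, -0.0226 with pseudogene counts and -0.0137 with DESeq2. RPLP1 between genotypes in DMSO was at 0.00513 with library totals alone and 0.0165 from 5 CPM. With drug in KO-labelled cells RPL7L1 was at 0.0478 and 0.0571, and RPL35 at 0.0101 and 0.0195, under these settings. Both values of RPL7L1 passed as rises, and those of RPL35 did not pass. With no filter and drug RPL19 was at -0.00348 in parental and -0.00843 in KO-labelled cells, where RPLP1 was at -0.0263 and RPSA at -0.0268. RPL19 in parental cells was at -0.000564 with pseudogene counts. Without 1 library each, RPLP1 between genotypes in DMSO ranged from -0.0351 to 0.00531. With drug in parental cells RPL10L ranged from -0.163 to 0.0796, RPL19 from -0.0265 to 0.0629 and RPL26L1 from -0.00315 to 0.0943. In KO-labelled cells RPL10L ranged from -0.136 to 0.355, RPLP1 from -0.00236 to 0.0237, RPSA from -0.0216 to 0.0248 and RPL7L1 from -0.0255 to 0.00837.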

Other observations

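Rows for processed pseudogenes of members were counted beside their parent genes. Of 32 such rows 25 were tested. In KO-labelled cells in DMSO 18 were lower and 2 higher, with a median log2 fold change of -0.33, and in neratinib 17 were lower and 4 higher, with a median of -0.30 (edgeR quasi-likelihood test). With drug 16 rose and 2 fell in parental cells, with a median of 0.23, and 17 rose and 3 fell in KO-labelled cells, with a median of 0.26. Of all genes tested, 35.6% were lower and 36% higher in KO-labelled cells in DMSO, and 36.9% and 34.7% in neratinib. With drug, 41.8% of all genes rose and 38.9% fell in parental cells, and 38.9% rose and 38.4% fell in KO-labelled cells. The reads of the pseudogene rows and those of the parent genes were not separated here.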
